A study of Mus musculus with 16 samples.

Results

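The genes described here are 6 matrix metalloproteinases (Mmp2, Mmp3, Mmp9, Mmp10, Mmp13 and Mmp14), the related membrane protease Adam8 and 3 tissue inhibitors of metalloproteinases (Timp1, Timp2 and Timp3). They were taken by name, and all 10 were found among the 20325 genes of the mouse RNA libraries. The RNA came from OG2 mouse cells, namely passage 5 embryonic stem cells (ESC) and passage 2 embryonic fibroblasts (MEF), both transgenic cells of mixed 129SVJ, C57B6 and CBA background. The study asked what the AP-1 subunit c-Jun does in ESC and in reprogramming, and whether c-JunDN, its dominant-negative form, and Jdp2, an AP-1 repressor, can take the place of Oct4.

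The 3 ESC libraries were a wild-type (WT) culture and a c-Jun TetOn line, 1 culture with doxycycline for 36 h and 1 without. The 6 MEF libraries were a WT culture and cultures over-expressing c-Jun, c-JunDN, Jdp2, Oct4 or a construct labelled DR, which serves here as their reference. The 4 KSM libraries were MEF that received Klf4, Sox2 and c-Myc together with DR, Oct4, c-JunDN or Jdp2, with RNA taken on day 3. A further 3 samples for chromatin immunoprecipitation were not used here. The time after transduction of the MEF libraries is not given in the sources used here. No ESC control carries a label of doxycycline treatment, so what the drug does and what c-Jun does cannot be told apart. Each group is 1 library, so no difference has a replicate check. Every interval below is a 95% interval for counting error only, and no test across cultures was possible.

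Matrix metalloproteinases are zinc proteases that cut collagen and other matrix proteins. They are made as inactive precursors, opened by other proteases, and blocked by TIMPs that bind the active site. Several metalloproteinase genes are textbook targets of AP-1, the dimer of Jun and Fos proteins. Mmp13 is a collagenase that opens fibrillar collagen, and Mmp3 and Mmp10 are stromelysins with a wide range of substrates. Mmp2 and Mmp9 are gelatinases that act on denatured collagen and basement membrane. Mmp14 is anchored in the membrane, cuts collagen and activates the Mmp2 precursor with the help of Timp2. Adam8 is a membrane protease that sheds cell-surface proteins and is best known from leukocytes.

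Library sizes ranged from 1839383 to 3440917 expected counts outside the WT libraries, which held 12173100 (ESC) and 21415021 (MEF). A floor of 3 counts corresponded to 0.835 to 1.60 CPM (counts per a fixed total of counts, after TMM scaling of the libraries) outside the WT libraries. Jun, Jdp2 and Pou5f1 (the Oct4 gene) were each highest, within their cell type, in the library given that factor. In MEF, Jun stood at 88.5 CPM with DR, 11965 CPM in the c-Jun library and 3968 CPM in that of c-JunDN, and at 2015 CPM in induced ESC. The counts do not separate introduced from endogenous transcripts. Summed fibroblast markers (13 genes) reached 18470 to 61215 CPM in the 6 MEF libraries and 1864 to 2979 CPM in the 4 KSM libraries. Pluripotency markers (9 genes) summed to 5526 CPM in WT ESC and 6535 CPM in the uninduced line, and to under 5 CPM in the MEF libraries other than Oct4.

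A group of 3 nearby genes carry a full AP-1 consensus close to their start and are printed for that reason. In the RefSeq annotation of GRCm38.p6, Mmp13, Mmp3 and Mmp10 lie in a row of 10 metalloproteinase genes on chromosome 9, in the order Mmp13, Mmp12, Mmp1b, Mmp3, Mmp1a, Mmp10, Mmp8, Mmp27, Mmp20 and Mmp7. The windows below are the 250 bases before the annotated start, 5′ to 3′ on the + strand, in the RefSeq sequence of GRCm38.p6. Capitals mark the motif TGANTCA, which reads the same on both strands.
Mmp13, chr9:7272264-7272513: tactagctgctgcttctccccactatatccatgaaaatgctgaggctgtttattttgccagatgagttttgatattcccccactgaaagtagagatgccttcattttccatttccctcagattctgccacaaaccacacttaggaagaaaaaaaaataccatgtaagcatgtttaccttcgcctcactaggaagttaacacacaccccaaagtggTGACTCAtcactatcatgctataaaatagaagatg
Mmp3, chr9:7445572-7445821: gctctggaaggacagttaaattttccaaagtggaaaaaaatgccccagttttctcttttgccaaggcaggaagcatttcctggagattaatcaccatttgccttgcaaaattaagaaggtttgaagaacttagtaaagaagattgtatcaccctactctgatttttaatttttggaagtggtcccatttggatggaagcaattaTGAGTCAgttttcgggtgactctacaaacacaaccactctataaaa
Mmp10, chr9:7502092-7502341: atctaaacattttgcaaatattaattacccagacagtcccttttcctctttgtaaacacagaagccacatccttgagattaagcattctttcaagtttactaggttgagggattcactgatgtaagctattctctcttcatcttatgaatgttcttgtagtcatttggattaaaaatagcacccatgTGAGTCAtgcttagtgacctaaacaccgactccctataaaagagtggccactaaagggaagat
The motif began 35 bases before the start in Mmp13, 46 bases before it in Mmp3 and 63 bases before it in Mmp10, as TGACTCA in Mmp13 and TGAGTCA in Mmp3 and Mmp10. Promoter sequences were matched for 8 of the 10 genes. The motif was in 3 of those windows and not in those of Adam8, Mmp14, Timp1, Timp2 and Timp3. Of 32851 promoter windows of this length, 2217 (6.75%) held it. A match describes these letters and is not a measured binding site. Mmp2 and Mmp9 were not analysed here for sequence.

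Levels across genes were compared as TPM, each gene's share of all transcripts in a library, which allow for transcript length. In WT MEF the inhibitors and 2 proteases dominated. Timp2 stood at 1033 TPM, Timp3 at 959 TPM, Timp1 at 802 TPM, Mmp14 at 762 TPM and Mmp2 at 316 TPM. The other 5 genes were far lower, at 21.4 TPM for Mmp13, 12.6 TPM for Mmp9, 8.46 TPM for Mmp3, 6.85 TPM for Adam8 and 1.67 TPM for Mmp10. The collagenase, the stromelysins, Mmp9 and Adam8 were thus minor transcripts in unmanipulated fibroblasts.

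WT ESC were low for all 10 genes. Timp1 was the most abundant, at 57.4 TPM, and Mmp3, Mmp10, Mmp13 and Mmp9 had between 1 and 7 counts each. Between WT MEF and WT ESC, 9 genes passed the filter of 5 CPM in 1 of the 2 libraries, and all 9 were at least 2-fold higher in MEF. The same call took 24.3% of the 11693 genes tested. The CPM ratio ran from 4.53 for Adam8 (2.94 to 7.28) to 69.1 for Mmp9 (23.4 to 337). Mmp10, with 22 counts against 1, did not pass the filter. Mmp3, Mmp9, Mmp13 and Adam8 were under 5 CPM in WT ESC and passed only through the MEF library. They could not have been called lower, so the count of higher genes leans upwards. In these bulk cultures, fewer cells of a type and less RNA per cell cannot be told apart.

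**Figure D1:**
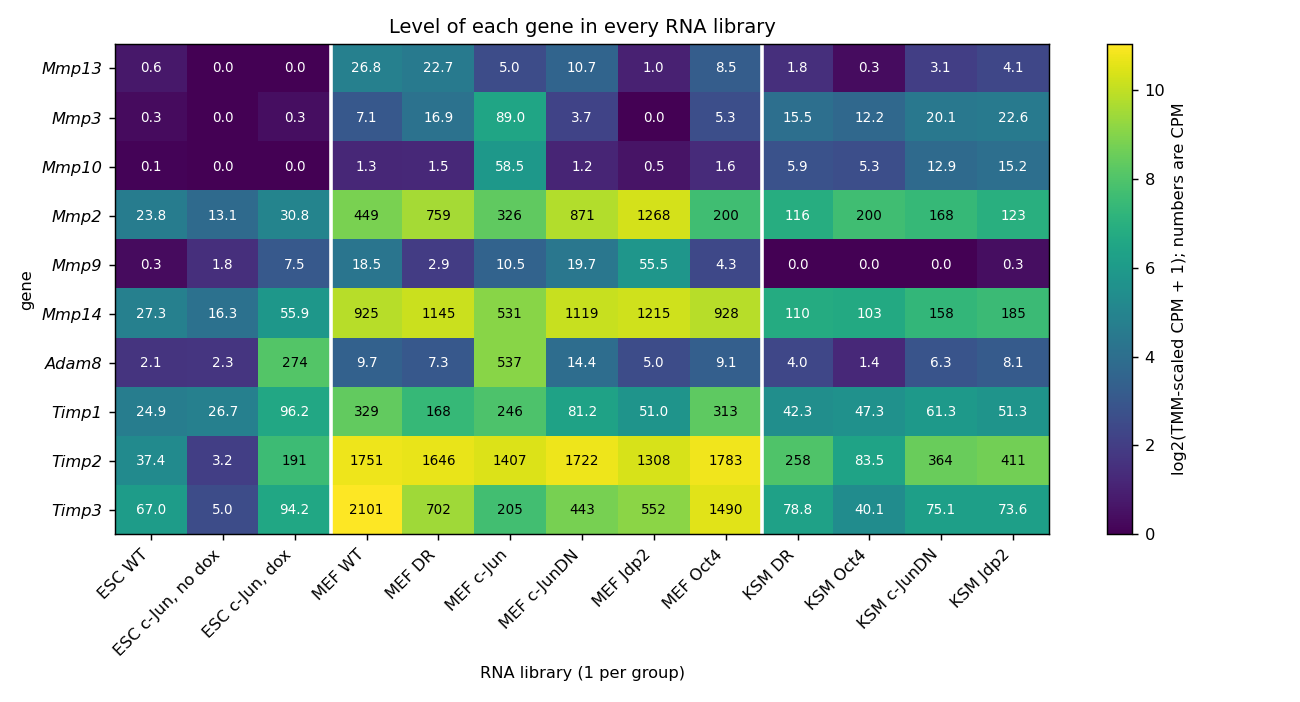
Level of each of the 10 genes (rows) in each of the 13 RNA libraries (columns, 1 per group), as TMM-scaled CPM. Colour is log2(CPM + 1), the numbers are CPM, and white lines separate ESC, MEF and KSM libraries. MEF Oct4 is scaled on the genes it shares with the other libraries, and on that scaling the CPM of WT and DR MEF are higher than shown. Adam8 is high in the 2 libraries with c-Jun (274 CPM in ESC and 537 CPM in MEF), and Mmp9 is at 0 in 3 of the 4 KSM libraries.

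Against WT MEF, the DR library already differed in 3 of the 9 genes that passed the filter. Mmp3 was higher (16.9 against 7.13 CPM), while Mmp9 was 6.37-fold lower (2.89 to 17.5) and Timp3 2.99-fold lower (2.84 to 3.16). Over all genes, 9.56% were higher and 10.4% lower between these libraries. A change against DR in Mmp3, Mmp9 or Timp3 is therefore given with the WT level beside it. Changes below are differences of log2(CPM + 1), called at 2-fold or more, and the ratios are of CPM with no pseudocount. The CPM of the MEF Oct4 library are scaled on the genes it shares with the others. On that scaling the CPM of WT and DR are higher than printed, such as Mmp2 with DR at 809 and not 759 CPM. The ratios with Oct4 use the shared scaling on both sides. The 4 MEF comparisons share the DR library, so their values are set side by side and not correlated.

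With c-Jun in MEF, all 10 genes passed the filter, 4 were at least 2-fold higher than with DR and 4 at least 2-fold lower. The call took 7.75% of 11114 genes upwards and 9.54% downwards. Adam8, Mmp10, Mmp3 and Mmp9 rose, and Mmp13, Timp3, Mmp2 and Mmp14 fell, so the median over the 10 genes was only 0.16, against 0.00 over all genes tested. With c-JunDN, 9 genes passed the filter, 1 rose and 3 fell (3.25% and 2.71% of 11030 genes), with a median over the 10 genes of -0.08 against 0.01. With Jdp2, 9 passed, 1 rose and 3 fell (5.81% and 6.32% of 11080 genes), with a median of -0.40 against a value of 0 over all genes to 2 decimals. With Oct4, 8 passed, none rose and 3 fell (11.6% and 10.3% of 11205 genes), with a median of 0.03 against 0.01. Mmp13 was lower than DR in all 4 libraries. In any comparison here, a gene under 5 CPM in 1 of the 2 libraries can be called in 1 direction only. Mmp9 and Mmp10 were under 5 CPM with DR, so their calls could only be rises. Mmp13 with c-Jun (4.998 CPM) and Jdp2, and Mmp3 with c-JunDN and Jdp2, could only be called lower.

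The stromelysins separated c-Jun from the other factors. Mmp3 was at 16.9 CPM with DR, 7.13 CPM in WT MEF, 89.0 CPM with c-Jun, 3.69 CPM with c-JunDN, 0 with Jdp2 and 5.33 CPM with Oct4. Only the c-Jun library lay above both references. It stood 5.26-fold above DR (3.64 to 7.79) and 12.5-fold above WT (9.83 to 15.9). Against DR, Mmp3 was 4.58-fold lower with c-JunDN (2.16 to 10.8), at least 11.3-fold lower with Jdp2 (35 counts against 0, with a floor of 3) and 3.39-fold lower with Oct4 (1.64 to 7.68). Against WT MEF the c-JunDN and Oct4 ratios were 0.518 (0.231 to 1.02) and 0.699 (0.327 to 1.33), whose intervals hold no change, so the fall in both depends on the reference.

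Mmp10 was close to absent from fibroblasts except with c-Jun. It had 3 counts with DR, 3 with c-JunDN, 1 with Jdp2 and 3 with Oct4, and 117 counts with c-Jun, which is 58.5 CPM. WT MEF held 22 counts, or 1.34 CPM. The ratio of c-Jun to DR was 40.3 (13.5 to 198) and to WT MEF 43.6 (27.5 to 72.3). Mmp3 and Mmp10 are close paralogs, so the split of reads between them in the deposited estimates is uncertain. Their expected counts were not whole numbers in the same 8 of the 13 libraries, while Timp3 had such counts in 10 and Timp2 in 7. In most of these libraries the fractions of Mmp3 and Mmp10 complement each other, as in 177.91 and 117.09 with c-Jun in MEF. Some reads were thus divided between this pair, and the counting intervals do not cover that.

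Mmp13 went the other way. The collagenase was at 26.8 CPM in WT MEF, 22.7 CPM with DR, 10.7 CPM with c-JunDN, 8.52 CPM with Oct4, 5.00 CPM with c-Jun and 1.00 CPM with Jdp2. Against DR it was 4.55-fold lower with c-Jun (2.27 to 10.1) and 22.7-fold lower with Jdp2, where 2 counts were left (5.96 to 193). It was 2.13-fold lower with c-JunDN (1.29 to 3.58) and 2.85-fold lower with Oct4 (1.58 to 5.38). The log2 change with c-JunDN, -1.02, lies just past the 2-fold line. Against WT MEF, c-Jun was 5.37-fold (2.89 to 11.3) and Jdp2 26.8-fold lower (7.38 to 222). The 3 promoters that carry the printed motif thus did not move together with c-Jun, with 2 genes higher and 1 lower.

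Mmp12, the macrophage elastase gene that lies between Mmp13 and Mmp3, was at 46.0 CPM with c-Jun against 7.25 CPM with DR, and at 2.46 CPM with c-JunDN and 1.00 CPM with Jdp2. WT MEF held only 0.609 CPM (10 counts), so DR itself was 11.9-fold above WT (5.00 to 29.6). The rise with c-Jun held against both references, at 75.5-fold over WT (39.2 to 163). The falls with c-JunDN and Jdp2 held against DR only, since neither library lay below WT. With Oct4 the ratio was 1.51 to DR (0.750 to 3.14) and 18.0 to WT (8.18 to 42.6). The other 6 genes of the row had at most 3 counts in each of the 12 libraries with RefSeq-based names.

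**Figure D2:**
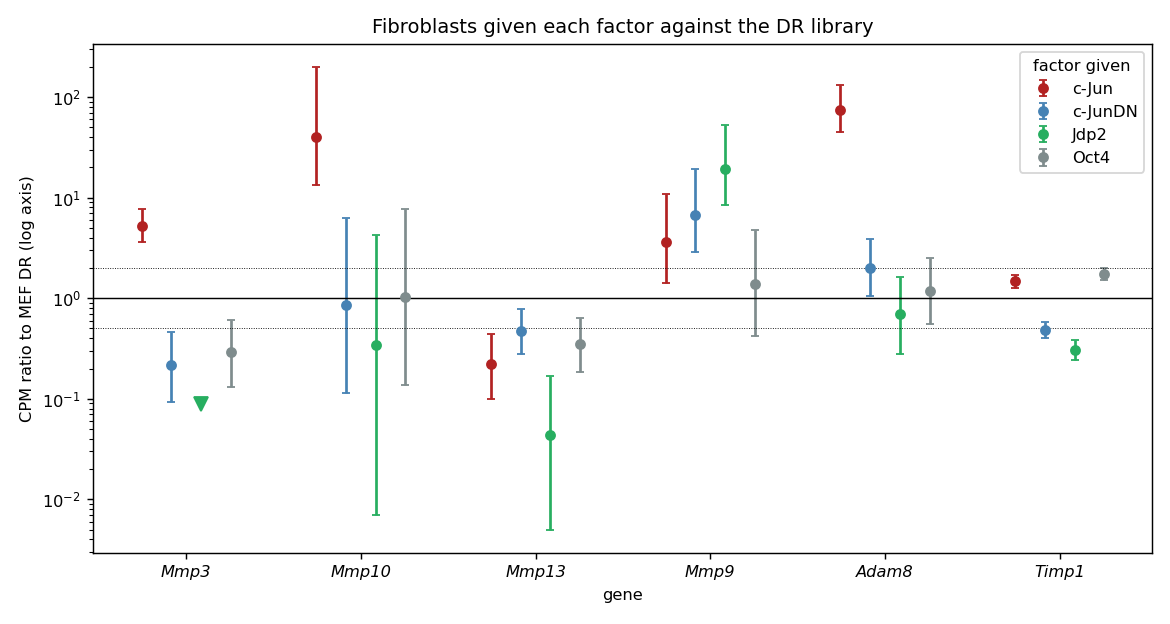
Ratio of CPM to the DR library (log axis) for 6 genes in MEF given c-Jun, c-JunDN, Jdp2 or Oct4, with the 95% counting interval as bars. The triangle is an upper limit for Mmp3 with Jdp2, which had 0 counts, and dotted lines mark 2-fold. With c-Jun, Mmp3, Mmp10, Mmp9 and Adam8 lie above 1 and Mmp13 below it, and Mmp13 lies below 1 for all 4 factors.

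The gelatinases differed with c-Jun against DR, where Mmp9 rose and Mmp2 fell. Mmp9 was at 2.90 CPM with DR (6 counts), 10.5 CPM with c-Jun, 19.7 CPM with c-JunDN, 55.5 CPM with Jdp2 and 4.26 CPM with Oct4, against 18.5 CPM in WT MEF. The ratio to DR was 19.1 with Jdp2 (8.51 to 53.2), 6.79 with c-JunDN (2.90 to 19.4) and 3.62 with c-Jun (1.41 to 11.0). DR was the lowest of the 6 MEF libraries. Against WT MEF, Jdp2 stayed 3.00-fold higher (2.39 to 3.74), c-JunDN was level at 1.07 (0.769 to 1.45) and c-Jun was lower at 0.568 (0.347 to 0.885). The rises with c-JunDN and c-Jun thus depend on the DR library, and the one with Jdp2 does not.

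Mmp9 is also a gene of macrophages, and macrophage markers were present in the MEF libraries. The 13 marker genes found summed to 86.97 CPM in WT MEF, 97.2 CPM with DR, 135 CPM with c-Jun, 194 CPM with c-JunDN, 39.5 CPM with Jdp2 and 333 CPM with Oct4. None of the 13 was at 0 in these libraries, except Ptprc, Fcgr1 and Mrc1 with c-Jun. In the c-JunDN library 5 of 9 measured markers were higher than with DR (3.25% over all genes), as was Mmp9. The Jdp2 library had the most Mmp9 and the lowest marker sum, and the Oct4 library had the highest marker sum and 8 counts of Mmp9. The part of macrophages in the Mmp9 level was not tested in any library.

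Mmp2 was an abundant fibroblast transcript, at 449 CPM in WT MEF, 759 CPM with DR, 326 CPM with c-Jun, 871 CPM with c-JunDN, 1268 CPM with Jdp2 and 199.7 CPM with Oct4. The c-Jun and Oct4 libraries lay below both references. Mmp2 was 2.33-fold lower with c-Jun (2.12 to 2.56) and 4.05-fold lower with Oct4 (3.62 to 4.55) than with DR, where the Oct4 comparison uses DR at 809 CPM on the genes it shares with that library. Against WT MEF the fall with Oct4 was 2.40-fold (2.17 to 2.67), and that with c-Jun was smaller, with a ratio of 0.726 (0.669 to 0.786). With Jdp2 the ratio was 1.67 to DR (1.57 to 1.78) and 2.82 to WT (2.70 to 2.95). Of 13 fibroblast markers, 6 were lower and 0 higher than DR with c-Jun (9.54% and 7.75% over all genes). With Oct4, 8 were lower and 2 higher (10.3% and 11.6% over all genes). With Jdp2, where Mmp2 was higher, 4 were lower and 1 higher (6.32% and 5.81% over all genes). Their part in the Mmp2 level was not tested.

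Mmp14, the activator of the Mmp2 precursor, was steadier. It was at 925 CPM in WT MEF, 1145 CPM with DR, 531 CPM with c-Jun, 1119 CPM with c-JunDN, 1215 CPM with Jdp2 and 928 CPM with Oct4. On the genes shared with the Oct4 library, WT MEF stood at 989 CPM, and the ratio of Oct4 to it was 0.938 (0.892 to 0.986). The c-Jun library stood apart from the other 5, with a ratio to DR of 0.464 (0.431 to 0.499). Its log2 change of -1.11 is near the 2-fold line, and against WT MEF the ratio was 0.574 (0.539 to 0.611).

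Adam8 showed the largest log2 change against DR of the 10 genes in MEF. It was at 537 CPM with c-Jun (1075 counts), against 7.25 CPM with DR, 9.69 CPM in WT MEF, 14.4 CPM with c-JunDN, 5.00 CPM with Jdp2 and 9.05 CPM with Oct4. The ratio of c-Jun to DR was 74.1 (44.7 to 133), and to WT MEF 55.4 (46.9 to 65.9). The 5 other MEF libraries lay between 5.00 and 14.4 CPM. In TPM, Adam8 rose from 5.29 with DR to 392 with c-Jun, next to Mmp14 at 452 and above Mmp2 at 237. Adam8 is expressed in leukocytes, and of the 13 macrophage markers 3 were measured against DR. Csf1r, the receptor for a macrophage growth factor, rose from 4.35 to 73.0 CPM and Cd14 from 13 to 54 counts, while Lyz2 fell from 60.9 to 23.0 CPM. Ptprc, Fcgr1 and Mrc1 were at 0 with c-Jun. The part of such cells in the Adam8 level was not tested.

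Among the inhibitors, Timp1 was the one called with c-JunDN and Jdp2. It was at 329 CPM in WT MEF, 313 CPM with Oct4, 246 CPM with c-Jun, 168 CPM with DR, 81.2 CPM with c-JunDN and 51.0 CPM with Jdp2. The c-JunDN and Jdp2 libraries were below both references. Timp1 was 2.07-fold lower than DR with c-JunDN (1.73 to 2.47, log2 -1.04) and 3.29-fold lower with Jdp2 (2.63 to 4.15). Against WT MEF these falls were 4.06-fold (3.52 to 4.70) and 6.46-fold (5.31 to 7.94). The ratio to DR was 1.47 with c-Jun (1.28 to 1.69) and 1.75 with Oct4 (1.53 to 2.00), both under 2-fold.

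Timp2 varied least among the MEF libraries, from 1308 CPM with Jdp2 to 1751 CPM in WT MEF, and no library differed from DR by 2-fold. With Oct4 it was at 1783 CPM, against 1871 CPM in WT MEF on the genes shared with that library (ratio 0.953, 0.919 to 0.988). Timp3, the inhibitor that stays bound to matrix, ranged more widely. It was at 2101 CPM in WT MEF, 1490.3 CPM with Oct4, 702 CPM with DR, 552 CPM with Jdp2, 443 CPM with c-JunDN and 205 CPM with c-Jun. The c-Jun library was the lowest, 3.42-fold below DR (3.07 to 3.83) and 10.3-fold below WT MEF (9.30 to 11.3). With Oct4, Timp3 was 1.99-fold above DR (1.87 to 2.12, log2 0.99), where DR stood at 749 CPM on the genes shared with the Oct4 library. That change is just under the line, and it passes the line with total-count scaling. Against WT MEF the same library was lower, with a ratio of 0.664 (0.639 to 0.690).

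In ESC with c-Jun and doxycycline, 7 of the 10 genes passed the filter, and all 7 were at least 2-fold higher than in the uninduced line. The same calls took 21.5% of 11133 genes upwards and 18.9% downwards. The median over the 10 genes was 1.66, against -0.07 over all genes tested. A gene near 0 without doxycycline passes the filter only if it is high with it, so the count of rises leans upwards.

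Adam8 led here too, at 274 CPM with doxycycline (808 counts) against 2.26 CPM without (5 counts) and 2.14 CPM in WT ESC. The ratio was 121 to the uninduced line (51.7 to 374) and 128 to WT ESC (85.5 to 201). The 2 control libraries were level, so the rise does not depend on which one is used. Summed macrophage markers rose from 19.9 CPM without doxycycline to 117 CPM with it. Both measured markers were higher (21.5% over all genes), Csf1r with 220 counts against 0 and Cd68 at 36.3 against 11.3 CPM. Of the 13 markers, 8 were at 0 in the induced library, among them Ptprc, Lyz2, Emr1 and C1qa, and 10 in the uninduced one. Keratinocyte markers (6 genes) summed to 529 CPM there, against 20.3 CPM without doxycycline, and the part of either list was not tested.

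Timp2 and Timp3 were different. Timp2 was at 191 CPM with doxycycline, 3.16 CPM without and 37.4 CPM in WT ESC, and Timp3 at 94.2, 4.97 and 67.0 CPM in the same order. The uninduced line was the low one of the 3 libraries for both genes. Against it, Timp2 was 60.3-fold (29.1 to 151) and Timp3 19.0-fold higher (10.4 to 38.4) with doxycycline. Against WT ESC, the ratio was 5.10 for Timp2 (4.49 to 5.80) and 1.41 for Timp3 (1.22 to 1.62). Summed fibroblast markers stood at 1452 CPM in WT ESC, 33.0 CPM in the uninduced line and 973 CPM with doxycycline, and their part in the TIMP levels was not tested.

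Timp1 was at 96.2 CPM with doxycycline, 26.7 CPM without and 24.9 CPM in WT ESC, a 3.61-fold difference from the uninduced line (2.72 to 4.86). Mmp14 was at 55.9, 16.3 and 27.3 CPM, Mmp2 at 30.8, 13.1 and 23.8 CPM, and Mmp9 at 7.46, 1.81 and 0.267 CPM in that order. The ratios to the uninduced line were 3.44 for Mmp14 (2.38 to 5.08), 2.35 for Mmp2 (1.54 to 3.71) and 4.13 for Mmp9 (1.40 to 16.5). Against WT ESC, 5 of 7 genes that passed the filter were higher (14.6% of 11359 genes), none was lower (background 22.6%), and Mmp2 and Timp3 were not called. In the uninduced line against WT ESC, 2 of the 5 genes that passed were lower, Timp2 and Timp3 (18.3% of 10895 genes).

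The 3 genes with the printed motif were not detectable above the floor in induced ESC. Mmp3 had 1 count, Mmp10 none and Mmp13 none, with a floor of 1.02 CPM. In the c-Jun MEF library the same 3 genes were at 89.0, 58.5 and 5.00 CPM. Jun itself was at 2015 CPM in that ESC library and 11965 CPM in the MEF library. Cell type and the level of the factor cannot be told apart in this contrast.

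**Figure D3:**
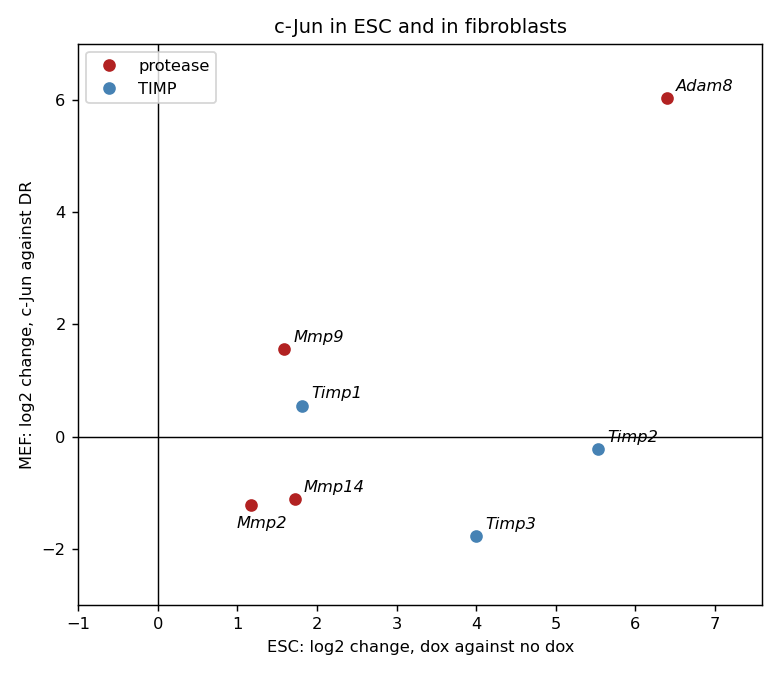
Change with c-Jun in ESC (x axis, log2, doxycycline against none) and in MEF (y axis, log2, c-Jun against DR) for the 7 genes that passed the filter in both, proteases in red and TIMPs in blue. Adam8 is far out on both axes (6.40 and 6.03), while Mmp2, Mmp14, Timp2 and Timp3 lie right of 0 in ESC and below 0 in MEF.

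On day 3 of the KSM mixture the fibroblast set was already low. In KSM with DR against MEF with DR, 6 of 9 genes that passed the filter were lower and 1 higher (20.1% and 18.1% of 11342 genes). Mmp14 was 10.4-fold lower (9.22 to 11.8), at 110.1 CPM, Timp3 8.91-fold (7.71 to 10.3), Mmp2 6.52-fold (5.78 to 7.38) and Timp2 6.39-fold (5.89 to 6.94). Mmp13 was 12.3-fold (4.93 to 39.8) and Timp1 3.96-fold lower (3.20 to 4.94). The stromelysins did not share this fall. Mmp3 stood at 15.5 CPM against 16.9 CPM, and Mmp10 rose from 3 to 16 counts, a ratio of 4.06 (1.16 to 21.7). Fibroblast markers were lower in 12 of 13, and their part was not tested. Time in culture, the 3 factors and any medium change cannot be told apart in this comparison.

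Mmp9 had 0 counts in KSM with DR, Oct4 and c-JunDN and 1 count with Jdp2, where the floor of 3 counts was lowest with Oct4, at 0.835 CPM. In the same 4 libraries, 6 to 9 of the 13 macrophage markers were at 0 and their sum was 8.35 to 19.5 CPM. Emr1, Csf1r, C1qa, C1qb and Fcgr1 were at 0 in all 4.

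Among the KSM libraries, 1 gene of the set was called in each comparison with KSM DR. With Oct4, 7 genes passed the filter and Timp2 fell, from 258 to 83.5 CPM, or 3.09-fold (2.69 to 3.54). The background was 6.67% of 10750 genes lower and 4.65% higher. Timp2 was at 364 CPM with c-JunDN and 411 CPM with Jdp2, so the Oct4 library alone lay below the reference. Timp3 was also low there, at 40.1 CPM against 78.8 CPM (log2 -0.96), while Mmp2 was higher, at 200.4 CPM against 116 CPM (log2 0.78).

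With c-JunDN and Jdp2, Mmp10 was the gene called, among 8 that passed the filter in each. It was at 5.89 CPM with DR (16 counts), 5.29 CPM with Oct4, 12.9 CPM with c-JunDN and 15.2 CPM with Jdp2. The ratio to KSM DR was 2.19 with c-JunDN (1.20 to 4.18, log2 1.01) and 2.58 with Jdp2 (1.43 to 4.89). The call with c-JunDN is lost with DESeq2 size factors, where the log2 change was 0.96. The call took 1.81% of 10715 genes upwards with c-JunDN and 2.68% of 10763 with Jdp2 (1.62% and 1.31% downwards). Mmp3 was at 15.5 CPM with DR, 12.2 CPM with Oct4, 20.1 CPM with c-JunDN and 22.6 CPM with Jdp2, with intervals that hold no change for c-JunDN (0.868 to 1.97) and Jdp2 (0.980 to 2.21). Mmp3 had 0 counts with Jdp2 in MEF, so the library with least Mmp3 in MEF and the one with most in KSM carry the same factor. The Jdp2 transcript was at 7226 CPM in MEF and 366 CPM in KSM, and the part of its level was not tested. The median over the 10 genes was 0.52 with c-JunDN and 0.60 with Jdp2, against 0.05 and -0.03 over all genes, and -0.22 with Oct4 against 0.07.

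The summed TPM of the 7 proteases and of the 3 TIMPs gave the balance of their transcripts per library. In WT MEF the TIMPs summed to 2795 TPM and the proteases to 1129 TPM, a ratio of 2.47. The ratio was 1.11 with DR, 1.23 with c-Jun, 0.90 with c-JunDN, 0.59 with Jdp2 and 2.75 with Oct4, the last on Ensembl gene models. Jdp2 and c-JunDN were thus the MEF libraries with more protease than TIMP transcripts. In ESC the ratio was 2.75 (WT), 2.70 (uninduced) and 1.46 (induced), and in KSM 1.43 (DR), 0.73 (Oct4), 1.34 (c-JunDN) and 1.36 (Jdp2). These are transcript sums and not enzyme activities, and Mmp14 and Mmp2 make up most of the protease sum in MEF.

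**Figure D4:**
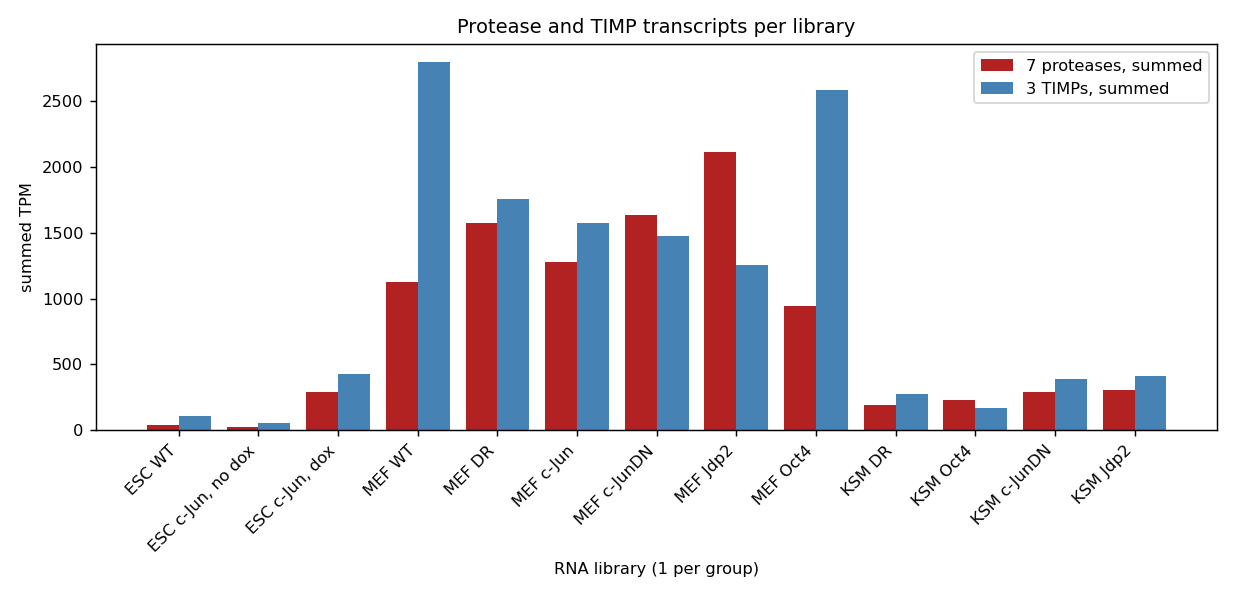
Summed TPM of the 7 proteases (red) and the 3 TIMPs (blue) in each of the 13 RNA libraries (1 per group). TIMPs exceed proteases in WT MEF (2795 against 1129) and MEF with Oct4, and fall below them in MEF with c-JunDN, in MEF with Jdp2 (1254 against 2113) and in KSM with Oct4.

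The other genes of the pathway were taken from 4 lists, and their counts against DR or the uninduced line stand beside the shares over all genes given above for the same comparison. Of 17 other metalloproteinase genes, 8 were measured with c-Jun in MEF, with 1 higher and 2 lower (7.75% and 9.54% over all genes). The riser was Mmp12, and the falls were Mmp23 (log2 -1.66, and -0.60 against WT MEF) and Mmp19 (-1.15). With c-JunDN 2 of 8 fell (2.71% over all genes) and none rose, and with Jdp2 3 of 9 fell (6.32% over all genes) and none rose. Mmp19, a broad-range secreted protease, was at 78.8 CPM with DR and 78.9 CPM in WT MEF, 10.3 CPM with c-JunDN and 11.5 CPM with Jdp2. With Oct4, 3 of 9 rose and 4 fell (11.6% and 10.3% over all genes), among them the membrane-type protease gene Mmp16 (3.35) and Mmp24 (-3.08). In induced ESC, 3 of 6 rose and 1 fell (21.5% and 18.9% over all genes), led by the membrane-type Mmp15 (3.27). Against WT ESC 2 of 5 were higher and none lower (14.6% and 22.6% over all genes).

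Of 9 other ADAM genes, all were measured in MEF. With c-Jun 1 rose and 3 fell (7.75% and 9.54% over all genes), and with c-JunDN none was called (3.25% and 2.71%). With Jdp2 4 fell and none rose (6.32% and 5.81% over all genes), and with Oct4 1 rose and 4 fell (11.6% and 10.3%). Adam12, known from muscle-forming cells, was at 752 CPM with c-Jun, 418 CPM in WT MEF, 184 CPM with DR, 145 CPM with c-JunDN and 12.5 CPM with Jdp2, and at 13.8 CPM with Oct4. Against DR it was 4.09-fold higher with c-Jun (3.65 to 4.59) and 14.7-fold lower with Jdp2 (9.81 to 23.0). Against WT MEF the ratio with c-Jun was 1.80 (1.70 to 1.90), under the line, while the fall with Jdp2 was 33.4-fold (22.6 to 51.7). In induced ESC 5 of 8 rose and 1 fell (21.5% and 18.9% over all genes). Adam12 rose from 0 counts, 31.5-fold if 3 counts stand for 0, and the general sheddase gene Adam10 was at 2.88. Against WT ESC 4 of 8 were higher and none lower (14.6% and 22.6% over all genes), with Adam12 9.04-fold (6.51 to 12.7) and Adam10 2.04-fold higher (1.85 to 2.24).

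Of 19 ADAMTS genes, which encode secreted proteases that cut proteoglycans and procollagens, 12 or 13 were measured in MEF. With c-Jun 3 rose and 3 fell (7.75% and 9.54% over all genes), and with c-JunDN 3 rose and none fell (3.25% and 2.71%). With Jdp2 4 rose and 2 fell (5.81% and 6.32% over all genes), and with Oct4 1 rose and 6 fell (11.6% and 10.3%). The aggrecanase genes Adamts1 and Adamts5 went opposite ways with c-Jun and Jdp2. Adamts1 was at 324 CPM with DR, 35.0 CPM with c-Jun and 2349 CPM with Jdp2. Adamts5 was at 257 CPM with DR, 31.5 CPM with c-Jun and 1327 CPM with Jdp2. WT MEF held 355 CPM of Adamts1 and 199.1 CPM of Adamts5, so both directions held against it too. Against DR they are the reverse of those of Mmp3, Mmp12 and Adam12. With Oct4, Adamts1 rose as well, to 1271 CPM. With c-JunDN, Adamts12 was the furthest from DR (2.39). In induced ESC 4 of 8 rose against the uninduced line and none fell (21.5% and 18.9% over all genes), led by Adamts7 (3.64). Against WT ESC, 1 of 10 was higher and 2 were lower (14.6% and 22.6% over all genes). The uninduced line had 5 of 8 lower than WT (18.3% over all genes), with Adamts7 at 4.07 against 32.9 CPM. The number of rises thus depends on which control is used. Summed fibroblast markers were at 1452 CPM in WT ESC and 33.0 CPM in the uninduced line, and their part was not tested.

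Of 14 other inhibitors and activators, 6 of 10 measured rose in induced ESC and 1 fell (21.5% and 18.9% over all genes). Against WT ESC 4 of 10 were higher and 2 lower (14.6% and 22.6% over all genes). Plaur, the urokinase receptor gene, was the furthest (4.32), followed by Plau, the urokinase gene, with 43 counts against 0 without doxycycline. Both were also higher than in WT ESC, Plaur 64.4-fold (44.6 to 96.5) and Plau 14.9-fold (7.54 to 32.0). With Jdp2 in MEF 1 of 11 rose and 3 fell (5.81% and 6.32% over all genes), among them Plat, the tissue plasminogen activator gene (-3.19), which rose with c-Jun (1.51). Ctsk, the collagen-cutting cathepsin K gene, fell with c-Jun (-2.15), while Ctsl, the cathepsin L gene, rose (1.17). With c-JunDN Plau fell (-1.76), and with Oct4 Plat fell (-3.12). In KSM with Oct4, 2 of 6 other metalloproteinase genes fell and none rose, and 2 of 8 ADAM genes rose and 2 fell. Of 8 ADAMTS genes 1 rose and none fell, and of 11 inhibitors and activators 3 fell and none rose (4.65% higher and 6.67% lower over all genes). With c-JunDN and Jdp2 in KSM no list had more than 1 gene called. The largest change in KSM was that of Adam23, an adhesion protein gene of neurons, with Oct4 (4.52).

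The genes most alike across the 12 libraries with RefSeq-based names were found by the correlation of log2(CPM + 1), given as a description. The libraries share 3 cell types, so genes that differ between fibroblasts and ESC correlate for that reason. Mmp14 was most like Gabarap and Ctso (r 0.989 and 0.988), Timp2 most like Gpr124 and Snx33 (0.990 and 0.989), Mmp2 most like Adamts10 and Thra (0.981 and 0.980) and Timp3 most like Col1a1 and Igf2 (0.978 and 0.975). Within the set, Mmp2 and Mmp14 were closest (0.97), then Mmp14 and Timp2 (0.94). Mmp10 was most like Mmp3 (0.911), where some reads were divided between this pair, and Mmp3 most like Chl1 (0.922). Mmp13 was most like Ch25h (0.959), Mmp9 most like Flt1 (0.95), Timp1 most like Chsy1 (0.953) and Adam8 most like Dusp10 (0.949). Mmp13 was less like Mmp3 and Mmp10, which lie in the same row on the chromosome, at 0.51 and 0.24.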

How the data were processed

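RNA was measured in 13 libraries. The authors deposited expected counts per gene from RSEM 1.1.21, per the submitters' processing notes, with build mm9, and the aligner of the RNA reads is not given in the sources used here. For 12 libraries the authors also deposited each gene's fraction of transcripts, which was rescaled to TPM here, and for MEF Oct4 they deposited TPM. The MEF Oct4 library was deposited on Ensembl genes and the other 12 on RefSeq-based names, so its comparisons use the 19687 names shared. Expected counts were rounded and scaled by TMM (edgeR 4.0.16, R 4.3.3). Changes are differences of log2(CPM + 1), for genes with 5 CPM or more in 1 of the 2 libraries, called at 2-fold. Exact conditional binomial intervals at 95% cover counting error only, and 3 counts stand for 0 in the ratios given for 0 counts. With 1 library per group no p-value was computed. The members and lists were chosen with earlier results of these data known. Named genes are the members, up to 3 measured genes per list and comparison with the largest absolute log2 change, the 2 genes most correlated with each member, and Jun, Jdp2 and Pou5f1. Levels of a named gene in further libraries, and the marker genes beside them, were picked once their values were known. The alternatives were total-count scaling, DESeq2 size factors (1.42.0), TPM, a pseudocount of 0.25 CPM and no filter. The calculation was tested on simulated data. ChIP peaks were not used here.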

Additional observations from a re-analysis of the deposited data

Results flagged for a closer look

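In 8 cases a gene moved in opposite directions under the same factor in 2 kinds of cell, with each counting interval on its own side of no change. The difference between the cell types was not tested, since each group is 1 library. Values are log2 changes.

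With c-Jun, in ESC and in MEF respectively, Mmp2 changed by 1.17 and -1.22, Mmp14 by 1.72 and -1.11, Timp2 by 5.53 and -0.23, and Timp3 by 4.00 and -1.77. For Timp2 and Timp3 the uninduced ESC line was far below WT ESC. With c-JunDN, in MEF and in KSM, Timp1 changed by -1.04 and 0.52. With Jdp2 in the same pair, Timp2 changed by -0.33 and 0.67. With Oct4 in that pair, Mmp2 changed by -2.01 and 0.78, and Timp3 by 0.99 and -0.96. For Timp3 the direction in MEF depends on the reference, since the Oct4 library was above DR but below WT MEF (-0.59), as in KSM.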

How the results depend on the processing

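Of 29 calls over the 8 main comparisons, 29 were kept with total-count scaling, 28 with DESeq2 size factors and 29 with TPM. All 29 were also kept with a pseudocount of 0.25 CPM and without the filter, but a smaller pseudocount or no filter cannot lose a call. The count of members called with Oct4 in KSM was 1, and 2 with DESeq2 size factors and 3 without the filter. That with c-JunDN in KSM was 1 (Mmp10), and 0 with DESeq2 size factors. None of the 29 calls changed direction under any of the 5 settings. Values that were not called were left out of that check, and Timp2 with Oct4 in MEF went from 0.02 to -0.04 with TPM. In induced ESC the median of all genes moved by 0.20 with total-count scaling and 0.36 with TPM, and all 7 calls were kept. No paired analysis was possible because each group is 1 library, and no replicate could be left out. Depth limits Mmp3, Mmp9, Mmp10 and Mmp13, with under 10 counts in several libraries.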
